A study of Homo sapiens with 15 samples.

Results

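The secretory pathway and the unfolded protein response were followed as a set of 50 genes, listed by name for what their proteins do, among 19856 protein-coding genes with an annotated promoter. A promoter was taken as the 2.5 kb on either side of the canonical Gencode transcription start in hg19, and every chromatin loop with a 1 kb anchor in that window was assigned to the gene. The list holds 9 stress sensors and transcription factors, 15 chaperones and folding enzymes, 5 genes of ER-associated degradation, 8 of translocation and signal peptide cleavage, 8 of COPII transport and 5 of COPI transport and retrieval. Contact at these promoters was compared before and after androgen, for each histone mark apart, and set beside other promoters of equal mean contact.

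The loops came from HiChIP, which captures pairs of DNA fragments that touch in the nucleus and enriches those carrying a chosen histone mark. LNCaP, an androgen-sensitive human prostate cancer line, was kept for 3 days in medium with charcoal-stripped serum, which is poor in steroids, and then given 10 nM dihydrotestosterone (DHT), the main androgen of prostate tissue. Cells were collected at 0 m, with EtOH alone as the control, and after 30 m, 4 h, 16 h and 72 h of DHT. At each time point there were 2 replicate libraries for H3K27ac, a mark of active enhancers and promoters, and 1 library for H3K4me3, a mark of active promoters. For every loop the deposit gives a single contact value at each time point of a mark. No replicate spread could therefore be computed, and the intervals given here cover counting error only. All cells were of 1 line, which limits how far the values speak for prostate tissue.

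Secretory and membrane proteins enter the endoplasmic reticulum (ER) through the SEC61 channel, are folded there by chaperones and disulfide isomerases, and leave for the Golgi in COPII vesicles, while COPI vesicles bring escaped ER residents back. When unfolded protein builds up, the sensors IRE1 (encoded by ERN1), PERK (EIF2AK3) and ATF6 start the unfolded protein response, whose transcription factors raise the folding, degradation and transport machinery. Luminal prostate cells secrete large amounts of protein under androgen control, and the IRE1 and XBP1 arm is known to respond to androgen in prostate cancer cells.

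Each contact value was a whole multiple of a single step per table (100% of values within a tolerance of 0.01), so the read pairs behind it could be recovered. For H3K27ac the tables held 2475168 read pairs on loops before DHT, then 4308555, 3569078, 4066305 and 3112568 in order of time. For H3K4me3 they held 2567961, 2153262, 10675614, 4115072 and 2413317, so the 4 h table was by far the deepest. The median loop had only 1 to 7 read pairs in a table, and promoters were therefore compared by their summed contact over all of their loops. Signal is given below in the units of the deposited values, scaled by the authors between the time points of a mark.

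The cell type of the label showed in the H3K27ac tables, and less clearly in those of H3K4me3. Among luminal prostate markers, HOXB13 stood at the 99.9th percentile of promoters by mean H3K27ac contact, KLK3 at the 98.8th, TMPRSS2 at the 95th and KLK2 at the 91.6th. No loop was listed at the basal markers TP63, KRT5 and KRT14, the immune marker PTPRC or the endothelial marker PECAM1. The fibroblast marker COL1A1 did have 17 loops, with 608 read pairs for H3K27ac and 598 for H3K4me3 over the 5 tables of each mark. Its percentile was 57.7 in H3K27ac and 36.8 in H3K4me3. In H3K4me3 the percentiles of the luminal markers were 88.4 for HOXB13, 87.1 for TMPRSS2, 69.7 for KLK3 and 35.9 for KLK2, the last below COL1A1.

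All 50 members had loops, 2436 different ones in total, of which 940 were in the H3K27ac loop set, 1963 in the H3K4me3 set and 467 in both. They were well connected: the median member had 39 loops, from 4 at TRAM1 to 173 at DNAJB9, against a median of 20 over the 16251 coding promoters with loops. Their loops were also long, with a median of 355 kb against 225 kb over all promoter loops. Of the 2437 partner ends, 476 (19.5%) lay at another coding promoter, 1204 (49.4%) elsewhere in a gene body and 757 (31.1%) outside genes. The windows of 7 members also held the promoter of another coding gene, such as FARSA at CALR, NCSTN at COPA and SLC39A1 at CREB3L4, and their contact cannot be told apart from that of the neighbour. A single loop of 15 kb joined 2 members, SAR1B and SEC24A, which lie side by side on chromosome 5.

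DHT was followed by higher H3K27ac contact over the set at 30 m, 16 h and 72 h, with a return to the starting level at 4 h. Mean H3K27ac contact per member loop was 1.15 at 0 m, 1.45 after 30 m, 1.14 after 4 h, 1.54 after 16 h and 1.49 after 72 h. The log2 change against 0 m was 0.33 (95% interval 0.30 to 0.37) at 30 m, -0.01 (-0.05 to 0.03) after 4 h, 0.43 (0.39 to 0.47) after 16 h and 0.38 (0.34 to 0.42) after 72 h. All 4 comparisons share the 0 m table. Part of this was general, since over all coding promoter loops the changes were 0.28, 0.03, 0.28 and 0.25. In pooled cells, contact in more cells and more frequent contact in each cell cannot be told apart, nor can contact and the amount of the mark at the anchors.

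H3K4me3 contact followed another course, with its highest value at 4 h, the time of the deepest table. Mean H3K4me3 contact per member loop was 1.97, 2.13, 2.55, 2.28 and 1.79 at the 5 time points in order. Against 0 m the log2 change was 0.12 (0.08 to 0.15) after 30 m, 0.37 (0.35 to 0.39) after 4 h, 0.21 (0.18 to 0.24) after 16 h and -0.14 (-0.17 to -0.10) after 72 h. Over all coding promoter loops it was 0.05, 0.27, 0.12 and -0.16, so the members stood a little above promoters at large up to 16 h, and at 72 h the value of all loops lay within the interval of the members.

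The scaling of the tables matters for these signs. Over all 505995 loops the deposited values were higher than at 0 m by 0.09, 0.07, 0.25 and 0.17 on the log2 scale for H3K27ac, and differed by 0.02, 0.22, 0.14 and -0.13 for H3K4me3. With every table of a mark brought to the same total, the set stood at 0.18 (0.15 to 0.22) for H3K27ac at 16 h and 0.21 (0.17 to 0.25) at 72 h, and H3K4me3 at 72 h was at -0.01 (-0.04 to 0.02), no longer below 0 m. The H3K4me3 value at 4 h was then 0.15 (0.12 to 0.17), against 0.37 as deposited. It was still the highest, beside 0.09 (0.06 to 0.12) at 30 m and 0.07 (0.05 to 0.10) at 16 h. H3K27ac at 4 h, level with 0 m as deposited, was then slightly below it, at -0.08 (-0.12 to -0.04). Over loops of at least 20 kb, as deposited, the 4 h value was also below 0 m, at -0.09 (-0.14 to -0.05). The place of a member among promoters of equal contact in 1 table does not depend on that scaling.

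A member was called when its summed contact was at least 1.5 times, or at most 1/1.5 of, the 0 m value, and only promoters with at least 250 read pairs over the 5 tables of a mark were counted. This left 47 members and 10246 coding promoters for H3K27ac, and 49 members and 11773 promoters for H3K4me3. For H3K27ac at 30 m, 7 members rose (19.8% of all promoters) and 1 fell (2.10% of all), and at 4 h none rose or fell (2.21% and 0.644% of all). At 16 h, 13 members (27.7%) rose and none fell, against 19.4% and 5.79% of all promoters. With equal totals the split at 16 h was instead 7 up and 5 down, beside 8.06% and 14.3% of all promoters. At 72 h, 10 members (21.3%) rose and 2 fell, against 18.5% and 4.54% of all. With equal totals 5 rose and 3 fell at 72 h, against 9.52% and 8.81% of all, and 4 rose and 1 fell at 30 m, against 12.8% and 3.29%. The shares at 30 m and 72 h were near those of promoters at large, and no difference between members and other promoters was tested.

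For H3K4me3 the calls clustered at 4 h, when 11 members (22.4%) rose and none fell, against 14% and 1.51% of all promoters. At 30 m, 1 member rose and none fell (0.815% and 1.28% of all), at 16 h, 3 rose and none fell (3.04% and 0.340% of all), and at 72 h none rose and 1 fell (1.15% and 5.98% of all). Under equal totals 6 members rose at 4 h (5.07% of all promoters) and 1 at 16 h (1.15%), and none fell at 72 h (2.06%).

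Promoters with strong loops changed otherwise than promoters with weak ones, so each member was also set beside the median of promoters in the same of 20 classes of mean contact per loop. For H3K27ac, 22 of 47 members were above their class at 30 m and 18 at 4 h, then 28 at both 16 h and 72 h, where by construction 50%, 50%, 49.9% and 50% of all promoters are. For H3K4me3, 37, 35, 39 and 32 of 49 were above their class in order of time, where 49.9% of all promoters are each time (49.9%, 49.9%, 49.9% and 49.9%). The member median sat above its class by only 0.09 on the log2 scale for H3K27ac at 16 h and 0.14 for H3K4me3. Individual members were spread far more widely than that, from -0.58 at SSR3 to 1.98 at SAR1A for H3K27ac at 16 h.

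**Figure D1:**
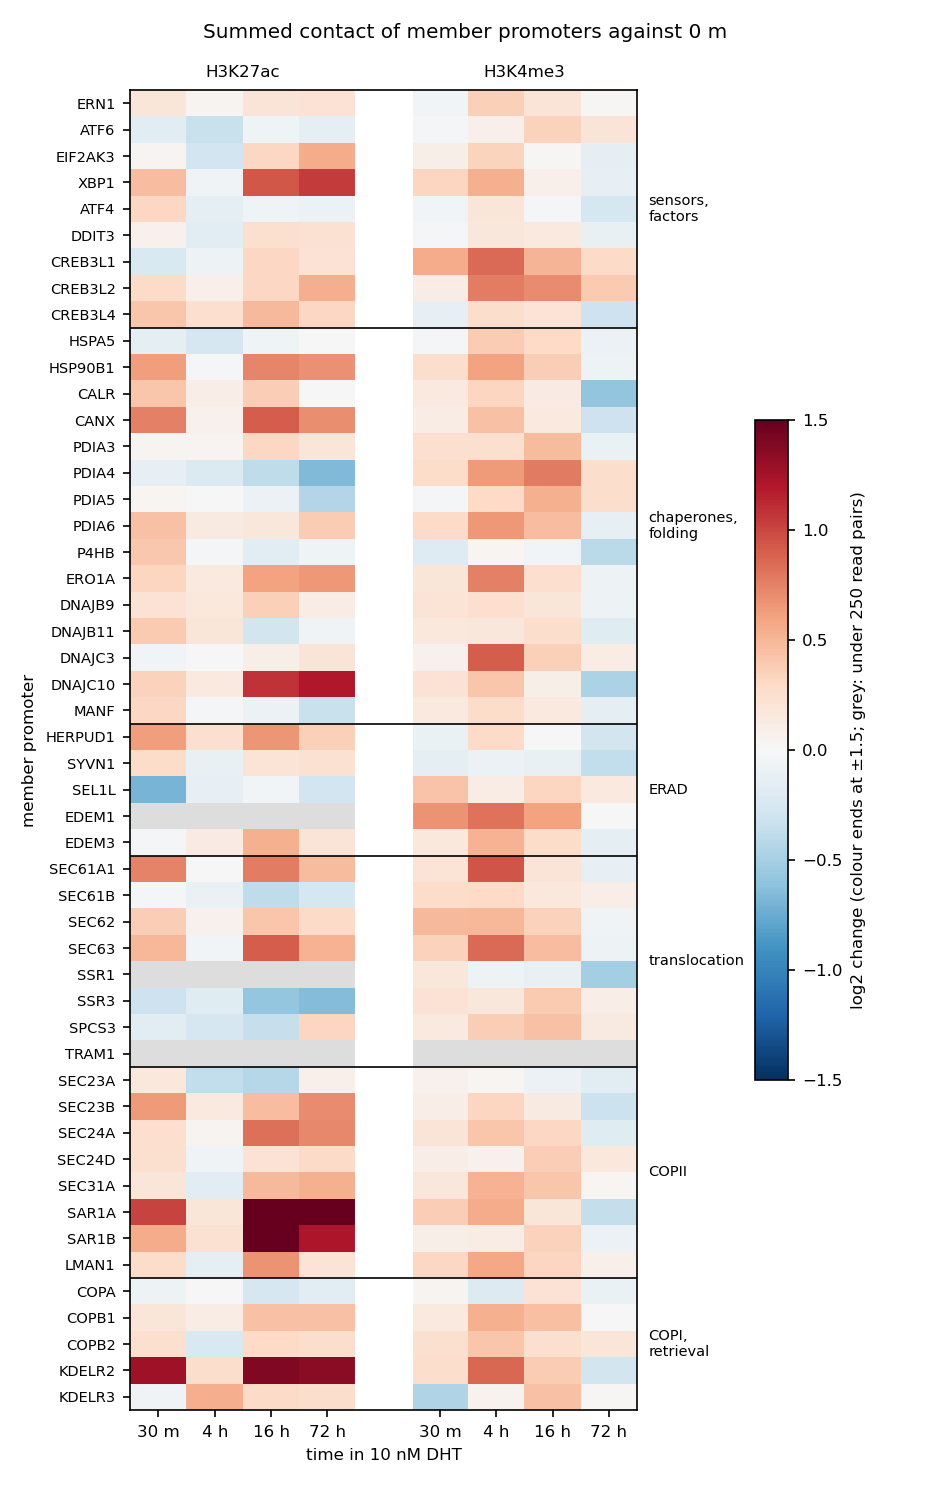
Log2 change in summed contact against 0 m for each of the 50 members (lines, grouped by role) at 30 m, 4 h, 16 h and 72 h of DHT (columns), H3K27ac and H3K4me3 side by side. H3K27ac was highest at 16 h and 72 h at SAR1A, SAR1B, KDELR2 and DNAJC10, and H3K4me3 at 4 h at SEC61A1 and DNAJC3.

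Among the sensors and transcription factors, XBP1 stood apart. XBP1 encodes the transcription factor made from the mRNA that IRE1 splices, and its promoter (chr22:29194057-29199057, hg19) had the highest mean H3K27ac contact of the set. Its summed H3K27ac contact was 182 at 0 m, 249.6 after 30 m, 175 after 4 h, 348 after 16 h and 376 after 72 h. This was a log2 change of 0.46 (0.32 to 0.60) at 30 m, 0.94 (0.80 to 1.07) at 16 h and 1.05 (0.91 to 1.19) at 72 h, and the promoter rose at the last 2 time points, also with equal totals (0.69 and 0.88). At 72 h it stood at the 96.2th percentile of promoters of equal mean contact. Its H3K4me3 contact had another order, 186, 233, 269.9, 196 and 170.4, with the peak at 4 h at a log2 change of 0.54 (0.42 to 0.66).

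The 3 sensors themselves moved little. ERN1, the kinase and endonuclease that splices XBP1 mRNA, had H3K27ac contact of 56.4, 64.1, 57.9, 64.3 and 65.5, with a log2 change of 0.19 (-0.08 to 0.46) at 16 h. ATF6, a membrane-bound factor released by cleavage in the Golgi, had only 324 H3K27ac read pairs and contact of 16.2, 14.4, 12.8, 15.5 and 14.7, and no difference was detectable at that depth (-0.06 (-0.59 to 0.47) at 16 h). EIF2AK3, the kinase PERK that slows translation by phosphorylating eIF2α, was the most mobile of them. Its H3K27ac contact was 42.9, 44.1, 35.3, 53.3 and 63.2, with a log2 change of 0.56 (0.26 to 0.86) at 72 h, just under the fold called. For H3K4me3 the largest changes of the 3 were 0.36 (0.16 to 0.57) for ERN1 at 4 h, 0.34 (0.04 to 0.65) for ATF6 at 16 h and 0.34 (0.14 to 0.54) for EIF2AK3 at 4 h, none of them called.

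The factors downstream of PERK were not called in either mark over all of their loops, and both were below their class in H3K27ac at each time point. ATF4, which is translated when eIF2α is phosphorylated, had one of the strongest promoters of the set, with H3K27ac contact of 214 at 0 m, 266 after 30 m, 194 after 4 h, 204 after 16 h and 200.2 after 72 h. Its log2 change was 0.31 (0.18 to 0.44) at 30 m and -0.07 (-0.21 to 0.07) at 16 h, the latter at the 24.7th percentile of its class. DDIT3, the stress factor CHOP, had H3K27ac contact of 145, 152, 130.1, 171 and 169 and a log2 change of 0.24 (0.07 to 0.40) at 16 h, the 28.1th percentile of its class. In its loops of at least 20 kb alone the change at 16 h was -0.69 (-1.15 to -0.24). The DDIT3 window also holds the promoter of MBD6, which its strongest loop reaches. H3K4me3 contact was 253, 245, 286, 249 and 210.3 at ATF4 and 104, 103, 117, 115 and 96.5 at DDIT3, so ATF4 was lowest at 72 h (-0.27 (-0.41 to -0.12)).

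The CREB3-like factors are ER membrane proteins cleaved like ATF6. CREB3L4, known for its high expression in prostate, had H3K27ac contact of 133, 178, 159, 187 and 166, a log2 change of 0.49 (0.32 to 0.65) at 16 h that did not reach the fold called. CREB3L2 had H3K27ac contact of 23.2, 28.2, 24.6, 28.9 and 33.9, at 0.55 (0.13 to 0.97) after 72 h and not called, and was called in H3K4me3, where its contact was 40.9 at 0 m, 44.1 after 30 m, 69.4 after 4 h, 66.9 after 16 h and 53.9 after 72 h. It rose at 4 h (0.76 (0.51 to 1.03)) and 16 h (0.71 (0.43 to 1.0)), the latter at the 98.7th percentile of its class. With equal totals these were 0.54 and 0.57, just short of the call. CREB3L1, named after its values were seen, rose in H3K4me3 at 4 h, from 7.9 to 14.2 (0.84 (0.26 to 1.47)), and was called with equal totals. Over all 9 sensors and factors the set change for H3K27ac was 0.40 (0.33 to 0.46) at 16 h, with 1 of 9 risen (19.4% of all promoters) and 4 of 9 above their class.

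**Figure D2:**
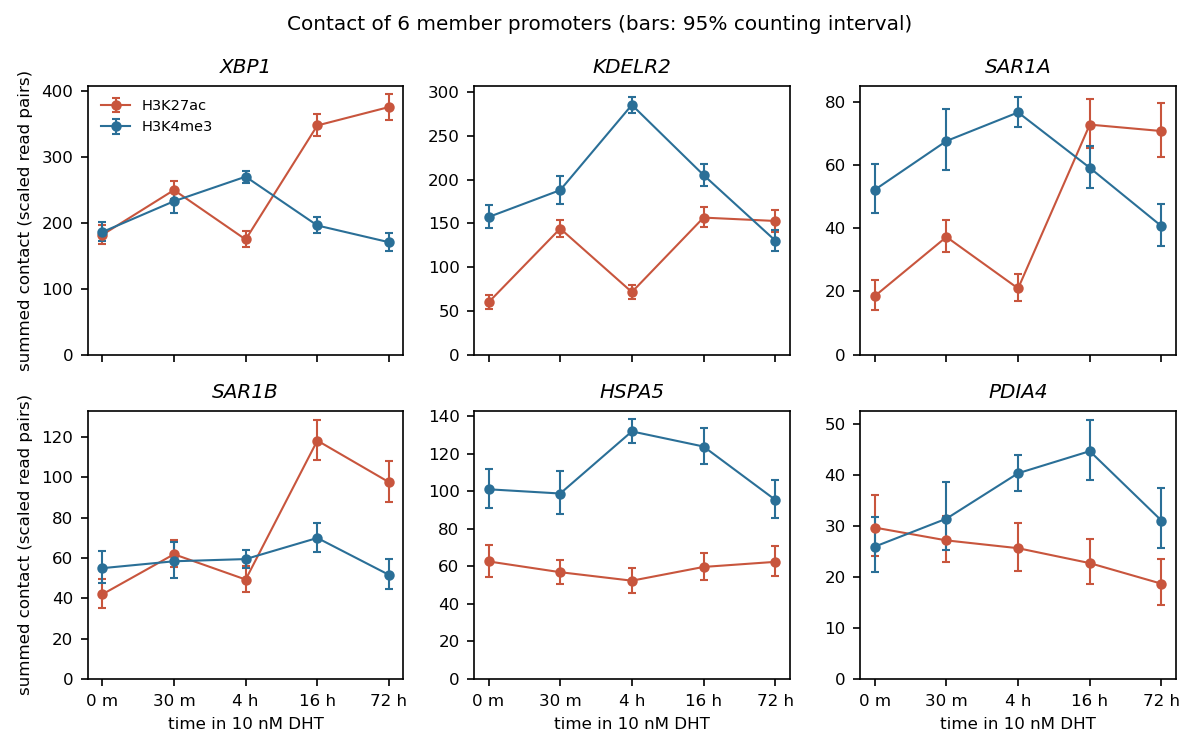
Summed contact per promoter (y axis, deposited units) over the 5 time points (x axis) for XBP1, KDELR2, SAR1A, SAR1B, HSPA5 and PDIA4, H3K27ac and H3K4me3, with 95% counting intervals. H3K27ac contact of SAR1A went from 18.5 at 0 m to 72.8 at 16 h, while that of HSPA5 stayed between 52.3 and 62.6.

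Chaperones split into promoters that rose and promoters that did not, with the main ER chaperone among the latter. HSPA5 encodes BiP, which binds unfolded chains and holds the sensors inactive, and its H3K27ac contact was 62.6 at 0 m, 56.9 after 30 m, 52.3 after 4 h, 59.7 after 16 h and 62.4 after 72 h. The log2 change was -0.14 (-0.39 to 0.12) at 30 m and -0.07 (-0.33 to 0.19) at 16 h, so that no change was detectable at 1292 read pairs. H3K4me3 at HSPA5 was 101, 98.7, 132, 124 and 95.4, highest at 4 h with 0.38 (0.22 to 0.55).

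HSP90B1, the ER form of HSP90, and CANX, the lectin chaperone calnexin, behaved unlike HSPA5 over all of their loops. HSP90B1 and CANX each had 1 loop of 5 kb, and HSPA5 had 0. Over loops of at least 20 kb neither HSP90B1 nor CANX was called at 16 h. Contact of HSP90B1 in H3K27ac was 45.3, 69.8, 44.7, 74.9 and 72.9, a rise of 0.63 (0.35 to 0.90) at 30 m, 0.73 (0.45 to 1.01) at 16 h and 0.69 (0.40 to 0.98) at 72 h. With equal totals none of the 3 was called (0.53, 0.48 and 0.52), although the promoter kept the 92.5th percentile of its class at 16 h. CANX was stronger, with H3K27ac contact of 117 at 0 m, 197 after 30 m, 122 after 4 h, 219 after 16 h and 189.7 after 72 h. It rose by 0.76 (0.59 to 0.93) at 30 m, 0.91 (0.74 to 1.08) at 16 h and 0.70 (0.52 to 0.88) at 72 h, the last of which was 0.53 and not called with equal totals. HSP90B1 also rose in H3K4me3 at 4 h, at 179 against 118 at 0 m (0.60 (0.45 to 0.76), and 0.38 with equal totals).

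DNAJC10 had the highest H3K27ac change among the folding enzymes. It encodes a disulfide reductase with a J domain that works with BiP, and its contact was 28.2 at 0 m, 36 after 30 m, 31.2 after 4 h, 59.7 after 16 h and 64.7 after 72 h. The rise was 1.08 (0.74 to 1.43) at 16 h and 1.2 (0.85 to 1.55) at 72 h, at the 98.3th and 99.3th percentiles of its class, and it was called with equal totals too. In loops of at least 20 kb it was not called at 16 h (0.19 (-0.34 to 0.73)) and only just called at 72 h (0.59 (0.07 to 1.12)). H3K4me3 at DNAJC10 moved the other way by 72 h, from 47.4 at 0 m to 34.1, a log2 change of -0.48 (-0.82 to -0.13) that was not called over all loops. ERO1A, the oxidase that recharges protein disulfide isomerase, had H3K27ac contact of 40.8, 50.9, 45.3, 62 and 63.9 and rose at 16 h (0.60 (0.31 to 0.90)) and 72 h (0.65 (0.34 to 0.96)), with equal totals at neither. Its H3K4me3 contact peaked at 4 h, at 123 against 73 at 0 m.

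Of the disulfide isomerases P4HB and PDIA3 to PDIA6, only PDIA4 was called in H3K27ac. PDIA4 had H3K27ac contact of 29.7 at 0 m, 27.2 after 30 m, 25.6 after 4 h, 22.7 after 16 h and 18.7 after 72 h, a steady order downwards, and fell at 72 h (-0.67 (-1.13 to -0.22)), to the 2.05th percentile of its class. At 16 h it stood at -0.39 (-0.79 to 0.02), which equal totals turned into a call of -0.63. In H3K4me3 the same promoter went up, with contact of 25.9 at 0 m, 31.4 after 30 m, 40.3 after 4 h, 44.7 after 16 h and 31.1 after 72 h. It rose at 4 h (0.64 (0.31 to 0.97)) and at 16 h (0.78 (0.43 to 1.15)), where it had the highest change of the set and the 99.7th percentile of its class. The 16 h call held with equal totals (0.65) and the 4 h call did not (0.41).

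PDIA5 showed the same opposition in smaller size. Its H3K27ac contact was 39.7, 40.5, 39.5, 37.4 and 29.2, with -0.44 (-0.82 to -0.07) at 72 h (a call of -0.61 with equal totals), and its H3K4me3 contact was 76.4, 75.5, 93.9, 111 and 92.1, with 0.54 (0.33 to 0.75) at 16 h. P4HB, the founding disulfide isomerase, had the highest H3K4me3 contact of the set, 355, 310.5, 364, 344 and 267, which was lowest at 72 h (-0.41 (-0.53 to -0.29)). Its H3K27ac contact of 169, 223, 167, 152 and 162 was highest at 30 m (0.40 (0.26 to 0.55)) and at 16 h stood at -0.16 (-0.32 to 0.00), the 13.2th percentile of its class. PDIA3 and PDIA6 lay above 0 m in H3K27ac and were not called, at 0.31 (-0.14 to 0.77) and 0.18 (-0.22 to 0.58) at 16 h and with 0.44 (0.07 to 0.82) for PDIA6 at 30 m. MANF, a secreted protein released from the stressed ER, had H3K27ac contact of 87.9, 109, 87, 82.4 and 69.7 and H3K4me3 contact of 219, 243, 265, 243 and 198, with no call in either mark.

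Of the 15 chaperones and folding enzymes, 4 rose in H3K27ac at 16 h (19.4% of all promoters) and 4 at 72 h (18.5%), where 1 fell (4.54%), and 5 rose in H3K4me3 at 4 h (14%). With equal totals 2 (CANX and DNAJC10) rose and PDIA4 fell at 16 h (8.06% and 14.3% of all promoters), DNAJC10 rose and PDIA4 and PDIA5 fell at 72 h (9.52% and 8.81%), and only DNAJC3 rose in H3K4me3 at 4 h (5.07%), so these counts were near the background. The members described least in this group (PDIA3, PDIA6, CALR, DNAJB9, DNAJB11 and DNAJC3) had H3K27ac changes at 16 h from -0.27 to 0.37, none called. Chosen after the values were seen, DNAJC3, an inhibitor of PERK, rose in H3K4me3 at 4 h from 52.5 to 98.3 (0.91 (0.68 to 1.14)), and PDIA6 from 57 to 89.7 (0.65 (0.44 to 0.88), and 0.43 and not called with equal totals). CALR, the soluble partner of calnexin, was the only counted member to fall in H3K4me3 over all loops, from 131 at 0 m to 86.6 at 72 h (-0.60 (-0.81 to -0.39)), and with equal totals it was not called (-0.47). Over loops of at least 20 kb CALR was not called at 72 h (-0.53 (-1.06 to -0.01)). The 1 member that fell there was DNAJC10 (-0.69 (-1.21 to -0.18)).

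The promoters of XBP1, HSPA5, HSP90B1, CANX and CALR carry the letters through which the response is known to reach its targets, and they are printed because their contact differed as much as described above. The ER stress response element was searched on both strands as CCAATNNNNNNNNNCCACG in RefSeq promoter windows (GRCh38.p14, 250 bases before to 50 after the start), with 46 members matched and KDELR2, PDIA3, SEC24D and MANF not in the table. It was found in 5 members (10.9%), against 19 of 15238 coding promoters (0.125%). Positions were obtained by exact match of the window to GRCh37. A match is a description of letters and not evidence of a bound site. Each sequence is given 5′ to 3′ on the strand of the gene, upstream of the start only, with the element in capitals, in its reverse complement where it lies on the opposite strand.
XBP1 chr22:29196571-29196629 minus strand: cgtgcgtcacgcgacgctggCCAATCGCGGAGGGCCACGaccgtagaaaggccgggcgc
HSPA5 chr9:128003650-128003708 minus strand: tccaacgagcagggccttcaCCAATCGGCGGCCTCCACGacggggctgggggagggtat
HSP90B1 chr12:104323974-104324137 plus strand: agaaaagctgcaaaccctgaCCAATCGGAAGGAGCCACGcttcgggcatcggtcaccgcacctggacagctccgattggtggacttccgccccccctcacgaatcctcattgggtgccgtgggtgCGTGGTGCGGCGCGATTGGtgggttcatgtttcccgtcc
CANX chr5:179125759-179125817 plus strand: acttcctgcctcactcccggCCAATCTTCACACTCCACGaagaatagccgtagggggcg
CALR chr19:13049178-13049236 plus strand: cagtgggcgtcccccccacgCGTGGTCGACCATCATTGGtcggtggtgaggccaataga
HSP90B1 held 2 copies, 1 on each strand, and CALR 1 on the opposite strand. XBP1 and HSPA5 have the element at nearly the same place, at -52 to -34 and -66 to -48 from the start. H3K27ac contact at 16 h was 348 against 182 at 0 m for XBP1, and 59.7 against 62.6 for HSPA5. The promoter of XBP1 had 1 loop of 5 kb and that of HSPA5 had 0, and XBP1 was also past the fold called in loops of at least 20 kb.

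ER-associated degradation sends misfolded proteins back to the cytosol for the proteasome. HERPUD1, a membrane protein that organizes the degradation complex, had H3K27ac contact of 68.8 at 0 m, 107 after 30 m, 81.4 after 4 h, 108 after 16 h and 87.9 after 72 h. It rose at 30 m (0.63 (0.41 to 0.86)) and 16 h (0.66 (0.43 to 0.89)), and with equal totals at neither (0.54 and 0.41). SYVN1, the ubiquitin ligase HRD1, had one of the strongest promoters in both marks, with H3K27ac contact of 151, 182, 139, 173 and 177 and H3K4me3 contact of 234, 213, 219.9, 216 and 181. Its H3K4me3 change was among the lowest of the set at 16 h (-0.11 (-0.24 to 0.02)). EDEM1, which marks glycoproteins for degradation by trimming mannose, had only 243 read pairs for H3K27ac and was not counted there.

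In H3K4me3, EDEM1 was the only member to rise at 3 time points, from few read pairs (485 over the 5 tables). Its contact was 11.6 at 0 m, 18.4 after 30 m, 20.4 after 4 h, 17.6 after 16 h and 11.5 after 72 h, a log2 change of 0.67 (0.06 to 1.3) at 30 m, 0.82 (0.34 to 1.33) at 4 h and 0.61 (0.06 to 1.17) at 16 h, the last of which was 0.47 with equal totals. The lower bounds at 30 m and 16 h lie close to 0. SEL1L, the partner of HRD1, was the only member to fall in H3K27ac at 30 m and was named after its values were seen. Its contact went from 35.3 to 21.8 (-0.70 (-1.07 to -0.32)) and was 32.3 at 4 h. EDEM3 had H3K27ac contact of 38.8, 38.1, 42.1, 56 and 44.5 and was not called.

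HERPUD1 was also the 1 member of 46 (2.17%) with TTGCATCA, the composite element bound by CHOP and ATF4, in its promoter window, against 103 of 15238 coding promoters (0.676%), both strands searched. The letters are shown in capitals on the strand of the gene, upstream of the start, in GRCh37.
HERPUD1 chr16:56965858-56965905 plus strand: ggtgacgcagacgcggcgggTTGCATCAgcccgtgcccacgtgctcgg
The 2 factors that bind this element, ATF4 and DDIT3, were at 204 and 171 in H3K27ac at 16 h against 214 and 145 at 0 m, and HERPUD1 was at 108 at 16 h against 68.8 at 0 m.

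The translocation group held both rising and low members. SEC61A1, the pore-forming subunit of the channel, had H3K27ac contact of 54.9 at 0 m, 92.3 after 30 m, 54.9 after 4 h, 93.6 after 16 h and 76.6 after 72 h and rose at 30 m (0.75 (0.50 to 1.0)) and 16 h (0.77 (0.52 to 1.02)). The 16 h call was lost with equal totals (0.52) and the 30 m call was not. H3K4me3 at SEC61A1 was 104, 119, 199, 118 and 94.8, and its rise at 4 h (0.94 (0.78 to 1.1)) was the highest change of any member in that mark and was called with equal totals. SEC61B, the small beta subunit of the same channel, differed from it in H3K27ac, with contact of 79.6, 77.9, 74.1, 60.9 and 66.3 and a log2 change of -0.39 (-0.63 to -0.14) at 16 h, which equal totals turned into a call of -0.63. The window of SEC61B also holds the promoter of ALG2.

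SSR3, a subunit of the TRAP complex beside the channel, had the lowest H3K27ac change of the set at 16 h. Its contact was 24.7 at 0 m, 19.97 after 30 m, 21.8 after 4 h, 16.6 after 16 h and 15.8 after 72 h, a log2 change of -0.58 (-1.04 to -0.11) at 16 h, which was a call with equal totals and in loops of at least 20 kb but not as deposited, and a fall of -0.64 (-1.15 to -0.15) at 72 h. H3K4me3 at SSR3 was 45.7, 52.9, 51.6, 60.1 and 48.9, above 0 m at 16 h by 0.40 (0.12 to 0.68), so SSR3, like PDIA4, stood below 0 m in H3K27ac and above it in H3K4me3. SSR1, of the same complex, had 203 read pairs for H3K27ac and was not counted there, and its H3K4me3 contact of 12.1, 13.7, 11.5, 11.2 and 8.52 was among the lowest changes at 16 h (-0.11 (-0.71 to 0.49)). TRAM1, a membrane protein near the channel, had 57 and 129 read pairs and was counted in neither mark.

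SEC62, SEC63 and SPCS3 complete the group, of which SEC63, named after its values were seen, helps chains into the channel. Its H3K27ac contact was 52, 73.4, 50.4, 97.2 and 74.5, with a rise of 0.90 (0.65 to 1.16) at 16 h that was called with equal totals (0.66) but not in its loops of at least 20 kb (0.13 (-0.25 to 0.51)), and its H3K4me3 contact at 4 h was 107 against 59.2 at 0 m (0.85 (0.64 to 1.07)). SEC62 was not called in either mark and SPCS3, a signal peptidase subunit, was called down in H3K27ac at 16 h with equal totals (-0.59) and in loops of at least 20 kb (-0.75 (-1.3 to -0.19)), though not over all loops as deposited. Over the group, 2 of 6 counted members rose in H3K27ac at 16 h (19.4% of all promoters) and 2 of 7 in H3K4me3 at 4 h (14% of all). With equal totals the H3K27ac split was 1 up, SEC63, and 3 down, SEC61B, SSR3 and SPCS3 (8.06% and 14.3% of all promoters), and the 2 in H3K4me3 stayed (5.07%).

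COPII transport had the highest H3K27ac change of the 6 roles at 16 h and 72 h, with intervals that overlap those of COPI transport and retrieval, which was higher at 30 m (0.60 (0.46 to 0.73) against 0.39 (0.29 to 0.49)). Mean contact per loop of the 8 COPII promoters was 1.16 at 0 m, 1.53 after 30 m, 1.15 after 4 h, 2.02 after 16 h and 1.94 after 72 h, a log2 change of 0.80 (0.70 to 0.90) at 16 h and 0.73 (0.63 to 0.84) at 72 h. At both times 4 of 8 rose (19.4% and 18.5% of all promoters) and 7 of 8 were above their class, and the median member stood at 0.58 and 0.62. Over loops of at least 20 kb, an alternative chosen after the values were seen, the order was the reverse, with 0.37 (0.23 to 0.50) at 16 h and 0.39 (0.25 to 0.53) at 72 h for COPII against 0.57 (0.40 to 0.73) and 0.60 (0.43 to 0.78) for COPI and retrieval, again with intervals that overlap. With equal totals the split at 16 h was 2 up, SAR1A and SAR1B, and 1 down, SEC23A, beside 8.06% and 14.3% of all promoters. In H3K4me3 none of the 8 was called at any time point, and the set stood at 0.41 (0.34 to 0.47) at 4 h.

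The 2 forms of the GTPase that starts COPII budding led the group. SAR1A (chr10:71927770-71932770, hg19) had H3K27ac contact of 18.5 at 0 m, 37.2 after 30 m, 20.9 after 4 h, 72.8 after 16 h and 70.8 after 72 h. It rose by 1.01 (0.60 to 1.44) at 30 m, 1.98 (1.58 to 2.39) at 16 h and 1.93 (1.53 to 2.35) at 72 h, the highest change of the set, at the 99.7th percentile of its class at 16 h. SAR1B (chr5:133966018-133971018, hg19) had contact of 42 at 0 m, 61.9 after 30 m, 49.4 after 4 h, 118 after 16 h and 97.6 after 72 h. Its rise was 1.49 (1.23 to 1.77) at 16 h and 1.22 (0.93 to 1.5) at 72 h, with 0.56 (0.27 to 0.85) at 30 m, just under the call. Both paralogues thus had their highest contact at the 2 late times, with a lower value at 4 h than at 30 m. At SAR1B a single loop of 5 kb held 69.4% of the H3K27ac contact. Its loops of at least 20 kb, with too few read pairs to be counted, did not keep the rise at 16 h.

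H3K4me3 contact of the same GTPase promoters did not follow. It was 52.2, 67.6, 76.7, 59.2 and 40.7 at SAR1A, where the 72 h change was -0.36 (-0.68 to -0.04), and 55, 58.4, 59.5, 69.98 and 51.7 at SAR1B, where the 16 h change was 0.35 (0.09 to 0.61). Neither promoter was called in that mark.

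Among the coat subunits, SEC24A, which picks cargo, had H3K27ac contact of 60.2, 71.6, 61.7, 107 and 99.2 and rose at 16 h (0.83 (0.59 to 1.07)) and 72 h (0.72 (0.47 to 0.97)). With equal totals both fell short (0.58 and 0.55). SEC23B, an inner coat subunit, had contact of 49.7, 77.4, 55.1, 68.4 and 81.3 and rose at 30 m (0.64 (0.38 to 0.91)) and 72 h (0.71 (0.44 to 0.99)), with equal totals at neither. Its paralogue SEC23A had contact of 18.2, 20.3, 14.1, 13.6 and 19.2 and went the other way, to -0.42 (-0.95 to 0.10) at 16 h. At 378 read pairs that interval includes 0, and with equal totals the value became a call (-0.67). LMAN1, a cargo receptor named after its values were seen, rose at 16 h alone, from 58.8 to 93.6 (0.67 (0.43 to 0.92), and 0.42 with equal totals). SEC31A and SEC24D were not called in either mark, at 0.49 (0.28 to 0.70) and 0.21 (-0.20 to 0.63) for H3K27ac at 16 h.

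COPI transport and retrieval was carried by a single promoter, KDELR2. KDELR2 encodes a receptor that returns ER residents ending in KDEL, and its promoter (chr7:6521283-6526283, hg19) had H3K27ac contact of 59.7 at 0 m, 144 after 30 m, 71.4 after 4 h, 156 after 16 h and 153 after 72 h. It rose by 1.27 (1.05 to 1.5) at 30 m, the highest change of the set at that time and the 99.9th percentile of its class, and by 1.39 (1.17 to 1.62) at 16 h and 1.36 (1.12 to 1.59) at 72 h. At 4 h the change was 0.26 (0.00 to 0.52). H3K4me3 at KDELR2 was 157 at 0 m, 188 after 30 m, 285 after 4 h, 205 after 16 h and 130.3 after 72 h, with a rise at 4 h (0.86 (0.73 to 0.99)), the time at which H3K27ac was back near its start. All 3 H3K27ac calls and the H3K4me3 call held with equal totals.

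The other 4 members of the group were not called at any time in either mark. COPB1 and COPB2, subunits of the COPI coat, had H3K27ac contact of 37.3, 42.5, 40.4, 50.5 and 50.5 and 57.6, 68.4, 49.4, 70.9 and 68.9. COPA, another coat subunit whose window holds the NCSTN promoter, had 27.3, 25.9, 27.3, 22.9 and 24.2, with -0.25 (-0.67 to 0.16) at 16 h, and the receptor KDELR3 had 10.3, 9.9, 15, 12.5 and 12.4 from 266 read pairs, with 0.54 (-0.06 to 1.17) at 4 h. The set change of 0.71 (0.57 to 0.84) at 16 h therefore came with a member median of 0.30.

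Transport genes carried most matches to the core of the unfolded protein response element, TGACGTG, read by ATF6 and XBP1, and a few are printed for that reason. On both strands of the same windows it was found in 8 of 46 members (17.4%), against 328 of 15238 coding promoters (2.15%): SEC23A, SEC24A, COPA, COPB1, COPB2 and KDELR3 among the transport genes, SEC62 and DNAJC10. None of the 8 also held the 19-letter element. Capitals mark the core on the strand of the gene, upstream of the start, in GRCh37, and CACGTCA is the core on the opposite strand.
DNAJC10 chr2:183580840-183580886 plus strand: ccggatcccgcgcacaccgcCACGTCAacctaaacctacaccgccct
SEC24A chr5:133984276-133984322 plus strand: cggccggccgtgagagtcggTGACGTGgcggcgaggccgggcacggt
COPB1 chr11:14521378-14521424 minus strand: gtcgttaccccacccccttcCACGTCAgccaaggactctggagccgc
KDELR3 chr22:38864036-38864082 plus strand: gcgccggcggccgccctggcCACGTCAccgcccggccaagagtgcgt
SEC62 chr3:169684559-169684594 plus strand: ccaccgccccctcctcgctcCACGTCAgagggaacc
The members with the core ranged in H3K27ac change at 16 h from -0.42 at SEC23A to 1.08 at DNAJC10, and 2 of the 8 rose (19.4% of all promoters), of which DNAJC10 alone was called with equal totals (8.06% of all). SAR1A and SAR1B, with higher changes, held neither these letters nor the 19-letter element in their windows, which says only that the letters are not there. For PDIA6, SEC31A and CREB3L1 the RefSeq start lay 19700, 9416 and 17497 bases from the Gencode start used for loops, so their windows are not those of the loops.

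Much of the H3K27ac increase at 16 h lay in the shortest loops, those joining neighbouring 5 kb bins, and the classes of loop length were chosen after the values were seen. The members had 41 such loops, 1.68% of all, and these held 22.8% of their H3K27ac contact at 0 m and 34% at 16 h. Mean contact of the 5 kb loops went from 15.6 at 0 m to 22.4 after 30 m, 17.4 after 4 h, 31.2 after 16 h and 28 after 72 h. The log2 change was 1.0 (0.93 to 1.07) at 16 h and 0.85 (0.77 to 0.92) at 72 h, against 0.72 and 0.57 over the 5 kb loops of all coding promoters. Loops of 20 to 95 kb changed by 0.29 (0.22 to 0.36) at 16 h (all promoters 0.13), and loops of 500 kb or more by -0.13 (all promoters 0.00).

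For H3K4me3 the length classes were closer together. The 5 kb loops of the members changed by 0.58 (0.53 to 0.63) at 4 h and -0.30 (-0.37 to -0.23) at 72 h, and those of 20 to 95 kb by 0.31 (0.26 to 0.36) and -0.08 (-0.14 to -0.02). At 5 kb the 2 anchors lie in neighbouring bins, and short ligation products without a loop cannot be told apart from loops there.

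**Figure D3:**
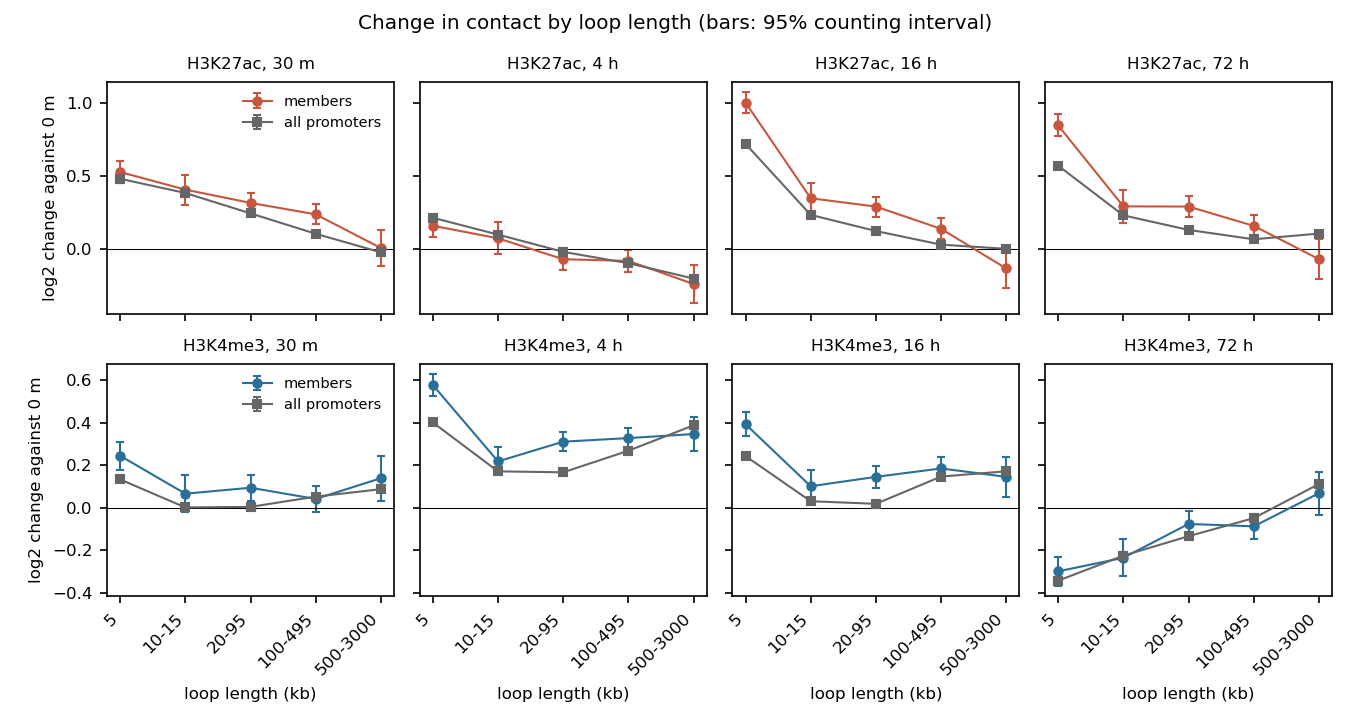
Log2 change in mean contact against 0 m by loop length for the members and for all coding promoters, H3K27ac and H3K4me3, with 95% counting intervals. For H3K27ac at 16 h the members stood at 1.0 in 5 kb loops and at -0.13 in loops of 500 kb or more.

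Counted over loops of at least 20 kb alone, 41 members had 250 read pairs for H3K27ac, of which 5 rose and 5 fell at 16 h, against 11.2% and 7.42% of all promoters. KDELR2 kept its rise in those longer loops, from 35 at 0 m to 80.3 at 16 h (1.2 (0.90 to 1.51)). SAR1A did as well, from 12 to 33.5 (1.48 (0.97 to 2.01)), and XBP1 went from 128 to 208 (0.70 (0.54 to 0.87)). SAR1B, with too few read pairs to be counted, and DNAJC10 did not at 16 h: their longer loops were at 0.24 (-0.41 to 0.91), from 204 read pairs, and 0.19 (-0.34 to 0.73). CANX was under the call, at 0.52 (0.30 to 0.75). The others that rose at 16 h over all loops and not over the longer ones were HSP90B1, ERO1A, SEC63, SEC24A and LMAN1, from 0.05 at ERO1A to 0.56 at SEC24A, while HERPUD1 and SEC61A1 kept their rise. The 5 that fell were DDIT3, PDIA4, SEC61B, SSR3 and SPCS3. Of the 41, 20 were above their class at 16 h and 19 at 72 h, where 28 of 47 were at both times over all loops, so that excess was not found here. In H3K4me3 the longer loops gave 10 rises among 48 members at 4 h (11.6% of all promoters), close to the 11 of 49 over all loops.

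Single loops were counted where they had at least 50 read pairs over the 5 tables, and called when at least doubled or at most halved at 16 h. Of 269 H3K27ac member loops, 66 (24.5%) doubled and 8 (2.97%) halved, against 17.7% and 6.81% of all 72724 such loops. Of the 40 loops of 5 kb among them, 19 (47.5%) doubled, against 22.3% of all such loops of 5 kb, and of the 185 loops of at least 20 kb, 41 (22.2%), against 16.7%. For H3K4me3, 55 of 611 (9.0%) doubled and 12 (1.96%) halved, against 8.46% and 3.72% of all 92361 loops, and the doubled share is near that background. No H3K4me3 loop of 5 kb doubled among 41 (8.24% of all), while 54 of 520 loops of at least 20 kb did (10.4%, and 9.23% of all).

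Within a promoter, contact was uneven. The strongest loop held a median of 29.4% of a member's H3K27ac contact and 26.4% of its H3K4me3 contact, against 26.7% and 26.4% over all promoters. The Gini index of contact over the loops of a member, 0 when all are equal, had a median of 0.735 for H3K27ac at 16 h and 0.633 for H3K4me3, against 0.682 and 0.597. The strongest loop was the same at all 5 time points in 36 of 47 members for H3K27ac (76.6%, all promoters 65.9%) and in 38 of 49 for H3K4me3 (77.6%, all promoters 73.0%). It spanned 5 kb in 33 of 47 and 33 of 49 members (70.2% and 67.3%), near the 67.1% and 64% of all promoters. CALR, with 81.7% of its H3K27ac contact in 1 loop, was the most concentrated, and HSPA5, with 7.25%, the least.

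The strongest loops of the 6 sensors, factors and folding enzymes with the highest summed contact are given with their partner anchors. In H3K27ac all but that of P4HB span 5 kb, where short ligation products without a loop cannot be told apart from loops. For XBP1 it was a 5 kb loop to chr22:29192001-29193000 (hg19), in an exon of XBP1 itself, with H3K27ac contact of 37.3, 52.9, 37.2, 108 and 115. Its log2 change at 16 h was 1.54 (1.25 to 1.83), and in H3K4me3 the same loop had 33.3, 43, 60.9, 47.2 and 27.5. CANX had a 5 kb loop to chr5:179122001-179123000, upstream of its start and outside coding genes, with H3K27ac contact of 42.6, 74.7, 45.3, 113 and 86.8 and a change of 1.41 (1.14 to 1.68) at 16 h, and H3K4me3 contact of 36.4, 32.8, 52.5, 44.3 and 23.1. P4HB was joined over 10 kb to chr17:79827001-79828000, at the promoter of ARHGDIA, and this loop had 37.9, 67.3, 36.5, 43.7 and 45, highest at 30 m, with 0.21 (-0.12 to 0.54) at 16 h, and in H3K4me3 75.3, 67.6, 81.4, 68.4 and 49.5.

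The remaining 3 of these 6 reached other promoters or stayed level. CREB3L4 met chr1:153947001-153948000, at the JTB promoter, with H3K27ac contact of 28.2, 44.3, 45.1, 46.9 and 38.9 (0.73 (0.38 to 1.1) at 16 h) and H3K4me3 contact of 65.4, 73.4, 76.1, 98.4 and 43.2. MANF met chr3:51427001-51428000, at the RBM15B promoter, with H3K27ac contact of 22.6, 27.5, 22, 31.4 and 16.3 (0.47 (0.07 to 0.89)) and H3K4me3 contact of 30.2, 37.9, 44.9, 41.4 and 31.1. ATF4 had its strongest H3K27ac loop to chr22:39922001-39923000, over 5 kb and outside coding genes, with 29.4, 33.6, 35, 28.7 and 24.5 (-0.04 (-0.42 to 0.35)). In H3K4me3 the strongest loop of ATF4 ran 20 kb to the MIEF1 promoter, at chr22:39897001-39898000, with 40.6, 35.5, 39.9, 34.2 and 24.7.

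The transport promoters with the highest changes had their strongest loop within their own gene or promoter window. These loops span 5 kb, where short ligation products cannot be told apart from loops. KDELR2 reached chr7:6517001-6518000, over 5 kb and in its own intron, with H3K27ac contact of 19.4, 53.3, 23.9, 66.5 and 60.8 and a change of 1.78 (1.39 to 2.18) at 16 h. SAR1A had its strongest loop within its own promoter window, to chr10:71927001-71928000, with 6.46, 15.8, 7.69, 39.3 and 38.9 (2.6 (1.96 to 3.31)). SAR1B reached chr5:133962001-133963000 in its own intron, with 21.7, 43.7, 28.2, 87.5 and 75 (2.01 (1.65 to 2.39)), and this loop alone held 69.4% of its H3K27ac contact. HSPA5 differed, its strongest loop running 130 kb to chr9:128132001-128133000, outside coding genes, with 4.41, 4.86, 2.78, 4.25 and 5.0.

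**Figure D4:**
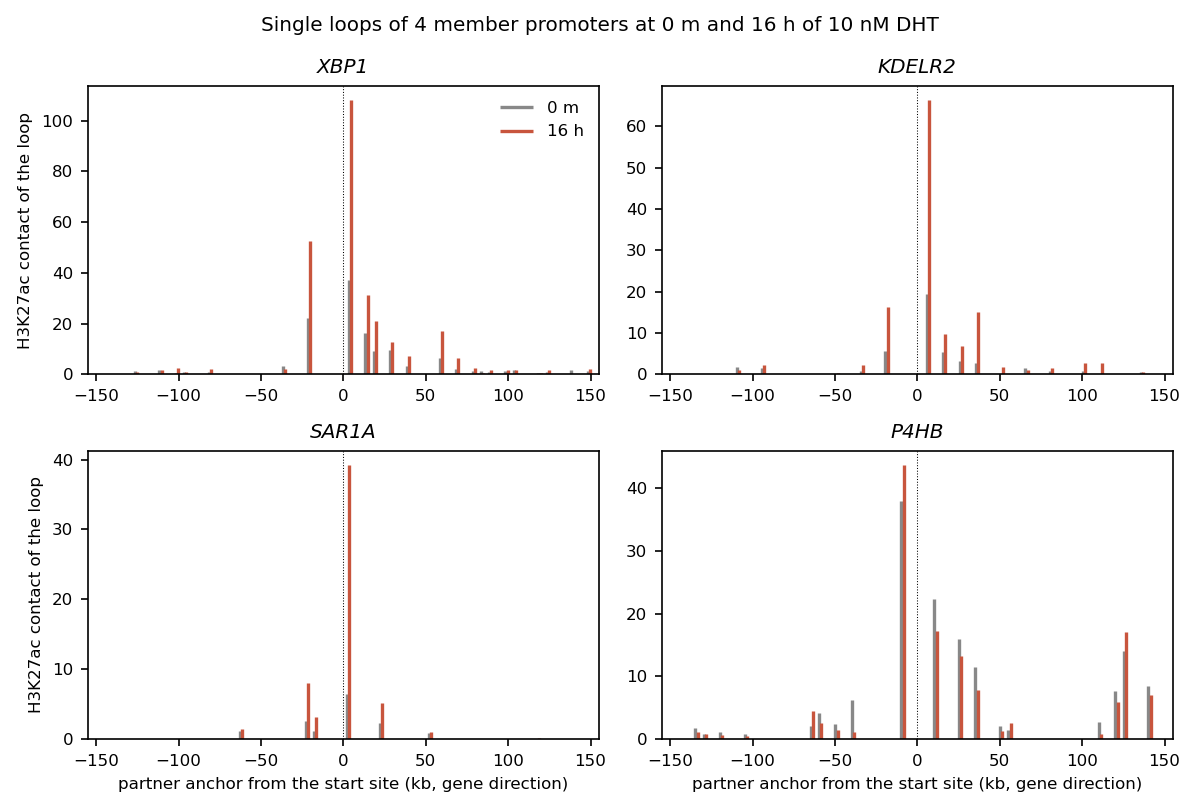
H3K27ac contact of each loop (y axis) by distance of the partner from the start site (x axis, within 150 kb) at 0 m and 16 h for XBP1, KDELR2, SAR1A and P4HB. The 5 kb loop of XBP1 stands at 37.3 at 0 m and 108 at 16 h, and the 10 kb loop of P4HB at 37.9 and 43.7.

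Another 81 genes of the pathway, from a list wider than the set, had a smaller change as a set. For H3K27ac 70 were counted, of which 8 (11.4%) rose and 1 fell at 30 m (19.8% and 2.10% of all promoters), none were called at 4 h (2.21% and 0.644%), 10 (14.3%) rose and 2 fell at 16 h (19.4% and 5.79%), and 9 (12.9%) rose and 4 fell at 72 h (18.5% and 4.54%). The shares that rose were below those of all promoters. The set change at 16 h was 0.19 (0.16 to 0.23), below that of all promoter loops. PPP1R15A, which reverses the action of PERK, went from 38.2 at 0 m to 70.9 at 16 h (0.89 (0.60 to 1.2)) and SEC22B, a fusion protein of transport vesicles, from 30.9 to 56.9 (0.88 (0.55 to 1.22)). At the low end was SELENOS, of the degradation complex, at -0.81 (-1.35 to -0.27). These 3 were picked after their values were seen. For H3K4me3 74 were counted, with 4 risen at 4 h (14% of all promoters), 3 risen at 16 h (3.04%), 1 fallen at 72 h (5.98%) and no other call.

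Known androgen targets give the scale of these changes. KLK3, which encodes prostate-specific antigen, had H3K27ac contact of 143 at 0 m, 294 at 4 h and 82.4 at 72 h, whereas XBP1 had 182, 175 and 376. The H3K27ac log2 change of KLK3 was 1.04 (0.89 to 1.19) at 4 h, 0.57 (0.42 to 0.73) at 16 h and -0.79 (-1.0 to -0.59) at 72 h, that of KLK2 1.08 (0.86 to 1.31), 0.88 (0.65 to 1.11) and -0.35 (-0.63 to -0.06), and that of FKBP5 0.61 (0.21 to 1.03), 0.92 (0.53 to 1.32) and 0.70 (0.29 to 1.12). UAP1 and ABCC4 were called at 16 h, with 0.73 (0.56 to 0.91) and 0.70 (0.42 to 0.97), and not at 4 h, with 0.13 (-0.07 to 0.32) and 0.36 (0.08 to 0.65). Both 16 h calls are lost with equal totals, where the shift was 0.25. TMPRSS2 was not called in H3K27ac, with 0.34 (0.15 to 0.53) at 4 h and -0.05 (-0.25 to 0.15) at 16 h. KLK2, KLK3 and FKBP5 thus rose at 4 h, when none of the 47 counted members did. The equal-totals shift of 0.07 at 4 h leaves FKBP5 short of the fold called, and KLK2 and KLK3 past it.

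In H3K4me3 the same targets were highest at 16 h or 4 h. At 16 h TMPRSS2 stood at 1.61 (1.43 to 1.79), KLK3 at 1.58 (1.34 to 1.83), KLK2 at 1.45 (0.97 to 1.95), UAP1 at 0.84 (0.63 to 1.05) and ABCC4 at 0.74 (0.48 to 1.0), all called, and FKBP5 at 0.06 (-0.24 to 0.37). The highest member at that time, PDIA4, was at 0.78 (0.43 to 1.15). No difference between these promoters and the members was tested.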

How the data were processed

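The deposited tables list 1 contact signal per loop for each of the 2 marks and 5 time points, from 15 libraries, 2 per time point for H3K27ac and 1 for H3K4me3, and whether both H3K27ac replicates entered the values is not stated. The authors trimmed reads with Trim Galore 0.5.0, mapped them to hg19 with HiC-Pro 3.1.0 and Bowtie2, called loops with FitHiChIP in 5 kb bins on reads merged over the time points, and applied TMM to the contact signal of each mark to scale its tables to one another. The 296326 loops of the H3K27ac set and the 278491 of the H3K4me3 set were joined into 505995 different anchor pairs, each counted once. Read pairs were recovered from the step of each table, between 2153262 and 10675614 per table.

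Here, summed contact per promoter and mean contact per set were compared with 0 m, with an exact 95% interval for a ratio of counts (Clopper-Pearson on the conditional binomial), using scipy 1.17.1 and pandas 2.3.3 in Python 3.11.15. Interval coverage and recovery of known folds were tested on simulated read pairs with counting error alone, so spread between libraries was not covered. No test between groups could be made with 1 value per time point. The alternatives tried were equal table totals, loops of at least 20 kb, the strongest loop left out, the median over genes, 100 read pairs per promoter, 30 per loop, 10 classes and, chosen after seeing the data, loop lengths accounted for and loops of at least 20 kb for 2 roles. The members and lists were chosen with earlier results of these data known. Some marker and reference genes are not reported here.

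Named genes were ERN1, ATF6, EIF2AK3, XBP1, ATF4, DDIT3 and HSPA5 in any case, the 5 members with the highest mean summed contact in each mark, the 4 highest and 4 lowest log2 changes at 16 h in each mark, every member called in 1 direction at 2 or more time points of a mark, and once those with under 250 read pairs. For the 6 sensors, factors, chaperones and folding enzymes of highest contact among the first 2 of these groups, the strongest loop of each mark was given.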

Additional observations from a re-analysis of the deposited data

Results flagged for a closer look

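The 2 marks did not follow the same course over the member loops, and this drew attention because 1 comparison of the same contrast lay above 0 m in 1 mark and below it in the other. At 72 h the log2 change in mean contact against 0 m was 0.381 for H3K27ac and -0.135 for H3K4me3. For H3K4me3 itself the earlier time points stood on the other side of 0 from 72 h, at 0.116 at 30 m, 0.371 at 4 h and 0.209 at 16 h. These differences were not tested, since each mark and time point has 1 deposited value and all changes of a mark share its 0 m table. With equal totals H3K4me3 at 72 h was -0.01 (-0.04 to 0.02), so the lower value there rests on the scaling.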

How the results depend on the processing

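Of 112 alternative values, 65 stayed within the interval of the reported value or within 1.5 times the reported count, and 47 moved. A change of sign was looked for only in set changes whose interval excluded 0, and 0 were found. Counts of calls could not be labelled in that way. Unless a value shows it, the cause was not tested.

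With equal table totals the set change for H3K27ac was 0.24, -0.0799, 0.18 and 0.21 in order of time, with 4 members up and 1 down at 30 m (12.8% and 3.29% of all promoters), 7 up and 5 down at 16 h (8.06% and 14.3%) and 5 up and 3 down at 72 h (9.52% and 8.81%). For H3K4me3 it was 0.15 at 4 h, 0.0737 at 16 h and -0.00833 at 72 h, with 6 up at 4 h (5.07% of all promoters), 1 up at 16 h (1.15%) and 0 down at 72 h (2.06%).

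Over loops of at least 20 kb the H3K27ac change was 0.25, -0.0948, 0.18 and 0.19, with 7 members up and 2 down at 30 m (15.7% and 3.1% of all promoters), 0 up and 1 down at 4 h (1.14% and 1.82%), 5 up and 5 down at 16 h (11.2% and 7.42%) and 6 up and 3 down at 72 h (13% and 5.43%). The H3K4me3 change was 0.0779, 0.32, 0.16 and -0.0604. For H3K27ac in the COPII transport loops alone it was 0.366 at 16 h and 0.391 at 72 h, and in those of COPI and retrieval 0.565 and 0.605, chosen after seeing the data.

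Without the strongest loop of each promoter the H3K27ac change was 0.26, -0.0604, 0.21 and 0.22, and the H3K4me3 change 0.0797, 0.32, 0.17 and -0.0768. As a median over member genes H3K27ac stood at 0.25 at 30 m, 0.31 at 16 h and 0.26 at 72 h, and H3K4me3 at 0.16 at 30 m, 0.27 at 16 h and -0.0899 at 72 h.

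With 30 read pairs per loop, 107 of 448 H3K27ac (23.9%) and 134 of 957 H3K4me3 (14%) member loops doubled at 16 h, against 16.8% and 13.7% of all such loops. With 100 read pairs per promoter 1 member, TRAM1, fell in H3K4me3 at 16 h (0.882% of all promoters). Counts above the class kept within 1.5 times with 10 classes and, chosen after seeing the data, with loop lengths accounted for.

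No paired analysis was possible because the labels number the replicates of H3K27ac but the tables hold 1 value per loop and time point. Depth limited single loops, with a median of 1 to 7 read pairs per table, and 3 members in H3K27ac and 1 in H3K4me3 had too few pairs to be counted.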
